A study of Bombyx mori with 3 samples.

Results

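The serpins are a family of protease inhibitors, and the silkworm genome holds a large set of them. The members described here were all genes of the deposited annotation whose symbol begins with serpin, which gave 31 of 16880 genes. Because serpin-13 has 2 rows (serpin-13 and serpin-13-2), the 31 genes carry 30 different symbols. Silk glands of Bombyx mori (Nistari strain) had been dissociated and profiled by droplet single-cell RNA sequencing at 3 stages. These were E8D, embryos 8 days after egg laying, 1L1D, larvae on day 1 of the first instar, and 1LM, larvae at the first molt. No animal carried a transgene or received a treatment, and about 2000 whole glands were pooled into the 1 library made for each stage. Stage and library therefore cannot be told apart, no value has a spread between samples, and all intervals cover counting error only.

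A serpin is cleaved by its target protease within an exposed reactive centre loop and then traps the enzyme in a covalent complex, so that each molecule is used up in a single reaction. In insects, extracellular serpins restrain the serine protease cascades that activate phenoloxidase (melanization) and the Toll ligand spaetzle, and others act inside cells. In the silk gland, where silk proteins are stored in the lumen before spinning, protease inhibitors are known both as gland products and as components of the cocoon.

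The silk gland has an anterior part (ASG), through which the liquid silk passes, a middle part (MSG), which makes sericin, and a posterior part (PSG), which makes fibroin. After filtering, 4880 cells were kept at E8D, 4339 at 1L1D and 7125 at 1LM, with medians of 738, 1845 and 1465 UMIs per cell (a UMI, or unique molecular identifier, marks 1 captured transcript). The kept cells shared 7 or 8 barcodes between any 2 libraries. Levels are given as UMIs per 1000000 UMIs of the group (CPM). They count 3′ ends without scaling to gene length, so levels of different serpins are set side by side only as shares of UMIs. Cells were clustered without the serpins and without the other protease inhibitors. Of 14 clusters, 12 were named "-like" after the cell types of the study from its marker genes, which had been chosen on these same libraries. In the PSG these are fibroin synthesis (FPS), fibroin catabolism (FPC) and death and remodeling (DRR). In the MSG they are sericin synthesis (SPS), sericin catabolism (SPC) and endoplasmic reticulum stress (ERSS), and in the ASG liquid silk fibrosis (LSF), traction forces (TR), epithelial remodeling (ECR) and chitin metabolism (CM).

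The serpin family took 264 CPM of all UMIs at E8D (95% Poisson interval 252 to 276), 972 CPM at 1L1D (958 to 986) and 1902 CPM at 1LM (1878 to 1925). These sums rest on 1816, 18021 and 24950 UMIs. They hold only genes whose symbol begins with serpin. LOC100272001, annotated as serine protease inhibitor 27, is not in them and had 0, 0 and 6906 UMIs (526 CPM at 1LM). With it, the summed ratios of 1LM over the other stages would be higher, so the negative values below hold only for the genes named serpin. The summed log2 ratio of 1L1D over E8D was 1.88 (1.81 to 1.95), and that of 1LM over E8D was 2.85 (2.78 to 2.92). The summed log2 ratio of 1LM over 1L1D was 0.97 (0.94 to 1.00) in CPM, but it turned to −0.30 relative to the median of all genes, and to −0.14 and −0.19 with the edgeR TMM and DESeq2 scalings. Most genes stood higher at 1LM than at 1L1D in CPM. The median log2 ratio of all genes counted was −0.17 for 1L1D over E8D, 1.27 for 1LM over 1L1D and 1.07 for 1LM over E8D, so a ratio relative to this median is given wherever it changes the reading. In bulk sums of this kind, fewer cells of a type and less RNA per cell cannot be told apart.

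Of the 31 serpins, 23 had a UMI in at least 1 library and 15 reached 100 UMIs in a library. The other 8, serpin-7, serpin-8, serpin-19, serpin-20, serpin-23, serpin-30, serpin-31 and serpin-33, had no UMI in any kept cell, and 7 of these had none in any deposited barcode. A count of 0 allows up to 0.436 CPM at E8D, 0.162 CPM at 1L1D and 0.229 CPM at 1LM. The 8 serpins between 1 and 99 UMIs were serpin-9, serpin-12, serpin-13-2, serpin-15, serpin-25, serpin-26, serpin-29 and serpin-34. Of these, serpin-12 had 8, 93 and 83 UMIs at E8D, 1L1D and 1LM. Serpin-15 had 0, 0 and 40 UMIs at the 3 stages, whereas serpin-26 had 14, 3 and 0 UMIs. Serpin-26 was the only serpin with at least 10 UMIs that was highest at E8D, and 8 such serpins were highest at 1L1D and 12 at 1LM.

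**Figure D1:**
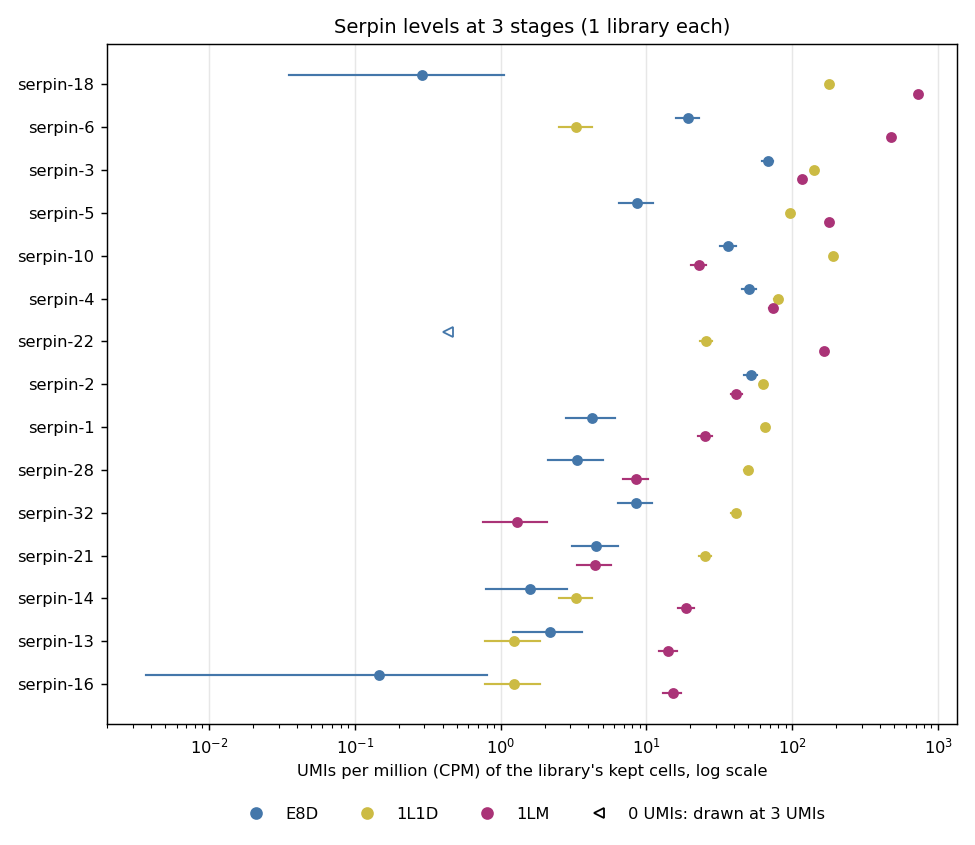
CPM of the 15 serpins with at least 100 UMIs in a library (rows, most UMIs first) on a log axis, 1 point per library with its 95% Poisson interval; an open arrow marks 0 UMIs, drawn at the level of 3 UMIs. Serpin-18 had 0.29 CPM at E8D, 179 CPM at 1L1D and 723 CPM at 1LM, whereas serpin-10 was highest at 1L1D with 189 CPM.

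A serpin was called higher or lower where it had at least 10 UMIs in 1 of the groups, differed at least 2-fold in CPM and had a 95% interval off 0. For 1L1D over E8D, 12 of the 18 serpins counted were higher (66.7%), beside 15.4% of all 8770 genes counted, and 2 were lower, beside 20.9% of all genes. The median log2 ratio was 2.20 over the serpins and −0.17 over all genes. For 1LM over 1L1D, 9 of 20 serpins were higher (45.0%), beside 60.1% of all 10029 genes, and 5 were lower, beside 5.52%. Relative to the median of all genes, 8 were lower, because serpin-2, serpin-3 and serpin-4 then joined the 5. Serpin-18 was then no longer called higher. The share of all genes under this centring is not given, so the count of 8 has no background beside it. The median log2 ratio was 0.81 over the serpins and 1.27 over all genes. For 1LM over E8D, 13 of 21 serpins were higher, beside 51.3% of all 9871 genes, and 2 were lower, beside 6.07%.

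**Figure D2:**
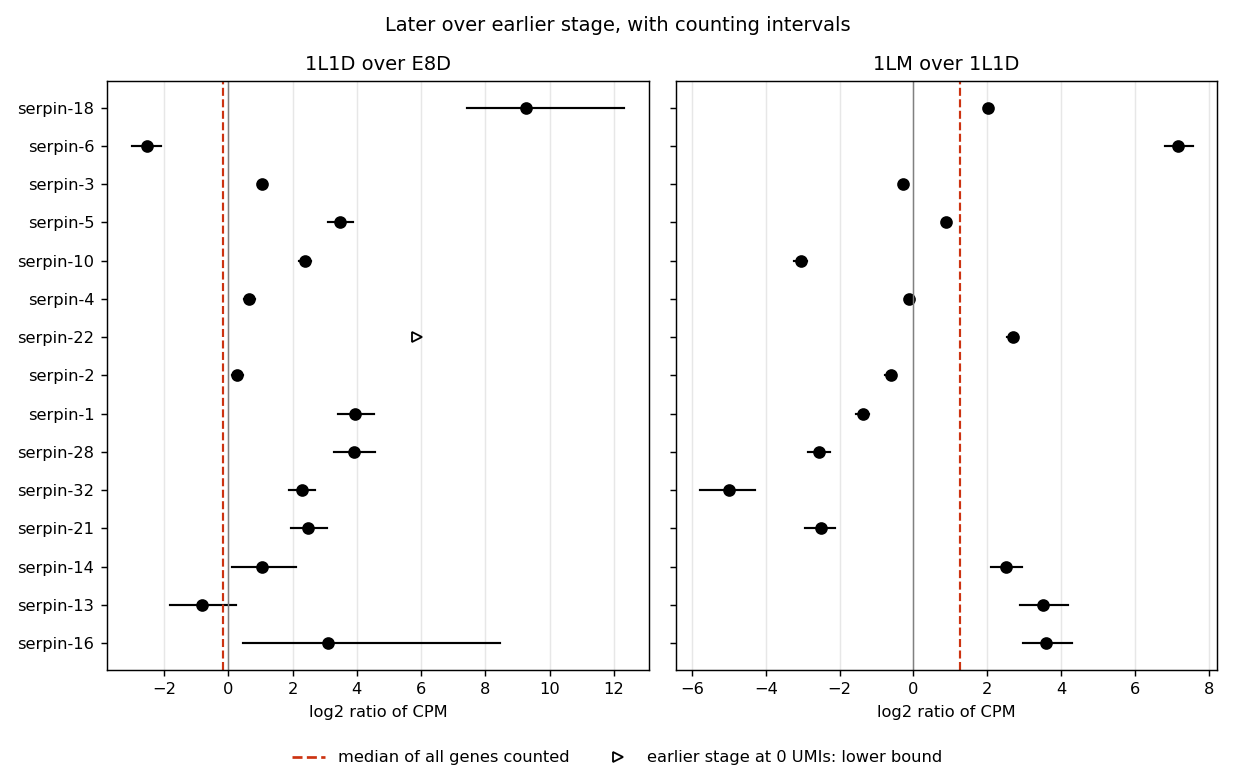
Log2 ratio of CPM for the same 15 serpins (rows) in 1L1D over E8D (left) and 1LM over 1L1D (right); points carry 95% counting intervals, an open arrow is a lower bound against 3 UMIs, and the dashed line is the median of all genes counted. Both panels use the 1L1D library, and 9 of the 15 serpins lie left of the dashed line in the right panel.

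The serpin with the most UMIs was not the same at every stage. At E8D, serpin-3 gave 25.7% of all serpin UMIs, serpin-2 gave 19.7% and serpin-4 gave 19.2%. At 1L1D, serpin-10 gave 19.5%, serpin-18 gave 18.5% and serpin-3 gave 14.5%. This order of serpin-10 and serpin-18 held in the kept cells but not in all deposited barcodes of 1L1D, which had 6805 UMIs of serpin-18 and 4224 of serpin-10. At 1LM, serpin-18 gave 38.0% and serpin-6 gave 25.1% of serpin UMIs.

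Serpin-18 and serpin-16 are known from the silkworm silk gland, where they are described as inhibitors of cysteine proteases. At E8D, 1L1D and 1LM, serpin-18 had 2, 3328 and 9482 UMIs, which is 0.29, 179 and 723 CPM. It was close to the detection limit in the embryonic gland, and its log2 ratio of 1L1D over E8D was 9.27 with a wide interval of 7.42 to 12.32. The log2 ratio of 1LM over 1L1D was 2.01 (1.95 to 2.07) in CPM and 0.74 relative to the median of all genes, which is below 2-fold. Serpin-16 had 1, 23 and 198 UMIs at the 3 stages and was 3.61 higher on the log2 scale at 1LM than at 1L1D (2.98 to 4.30). Serpin-22 had 0, 477 and 2177 UMIs in the same order. It was at least 59.0-fold higher at 1L1D than at E8D, with 3 UMIs per library in place of 0, and its log2 ratio of 1LM over 1L1D was 2.69 (2.55 to 2.84).

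In the RefSeq assembly ASM3026992v2, which is not the build used for counting, serpin-22, serpin-18 and serpin-16 follow each other with 0 genes between neighbours. The 3 genes led in the same cluster, a small SPS-like cluster (number 10) that also had sericin 3 among its leading genes. The name rests on the median of 5 SPS markers, of which 0 were among the 10 leading genes, and sericin 1, the main MSG product, stood at 174 CPM in this cluster at 1L1D, against 4474 CPM in SPS-like cluster 2 and 709 CPM in the library. With clustering at resolution 0.4, the cluster with sericin 3 among its leading genes was named SPC-like in place of SPS-like. Serpin-18 had 1732 CPM in this cluster at 1L1D, against 44.9 CPM in all other cells, and the 180 cells of the cluster held 77.0% of its UMIs. Serpin-22 had 252 CPM in the same cells, against 6.15 CPM in other cells, and serpin-16 had 10.8 CPM, against 0.41 CPM. Serpin-18 was uneven over the cells of 1L1D, because the 43 cells (1% of the library) with the most serpin-18 held 82.4% of its UMIs but 2.94% of all UMIs, and 21 of them lay in cluster 10. For serpin-22, the 43 cells with the most of it held 89.9% of its UMIs. The highest single cell had 509 serpin-18 UMIs. Cluster 10 of 1L1D also had the highest level of a list of 5 fat body genes, at 5107 CPM, beside 65.7 to 1829 CPM in the other clusters of that stage, and the part of this list in the serpin levels was not tested. A single gene gave most of this list's UMIs in each library. The lipoprotein gene LOC101735732 gave 4595 of 5129 at E8D, and apolipophorins (LOC100862791) gave 13060 of 17723 at 1L1D. The log2 ratios of these genes for 1L1D over E8D were −1.70 and 5.11. Barcodes left out by the filters held 51.1% of the deposited serpin-18 UMIs of 1L1D, at 248 CPM, so the kept cells give a lower level than all barcodes.

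At 1LM, serpin-18 was spread over the whole library. It was 3846.5 CPM in SPS-like cluster 10, against 684 CPM in other cells, and 1586 CPM in SPS-like cluster 2, against 573 CPM. In DRR-like cells serpin-18 had 895 CPM, from 2425 UMIs, above the 723 CPM of the library. Its lowest level in any cluster of at least 20 cells was 256 CPM, in the unnamed cluster 6, which was led by fibroin genes. After thinning each cell to 1000 UMIs, which left out 1743 cells of 1LM, 67.9% of the cells of SPS-like cluster 10 had a serpin-18 UMI and 25.3% of the fibroin-led cells did. The median depths of these clusters were 2187 and 2293 UMIs. The top 1% of cells held 22.8% of the serpin-18 UMIs at this stage.

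The proportion of serpin-22 to serpin-18 was followed over the clusters of 1LM. There were 22.96 serpin-22 UMIs for each 100 of serpin-18 in the library as a whole, and between 19.7 and 26.2 in the 7 clusters with at least 100 serpin-22 UMIs, a limit chosen after the values were seen. The other 5 clusters held 3 to 82 serpin-22 UMIs and had wider intervals, such as 4.75 to 56.5 in TR-like cells. The ratio was 25.04 (23.1 to 27.1) in SPS-like cluster 2 and 19.7 (16.9 to 22.8) in ECR-like cells, and these intervals do not overlap. At 1L1D there were 14.5 (12.99 to 16.2) in SPS-like cluster 10 and 14.8 (11.5 to 18.8) in SPS-like cluster 2. Sericin 1 (LOC101740082) was likewise found in every cluster of 1LM, between 59.8 and 581 CPM. For each 1000 UMIs of sericin 1, the libraries of E8D, 1L1D and 1LM held 3.91, 253 and 3683.8 UMIs of serpin-18. RNA released from broken cells into the droplets was not measured, and its part in the levels outside the SPS-like clusters was not tested.

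**Figure D3:**
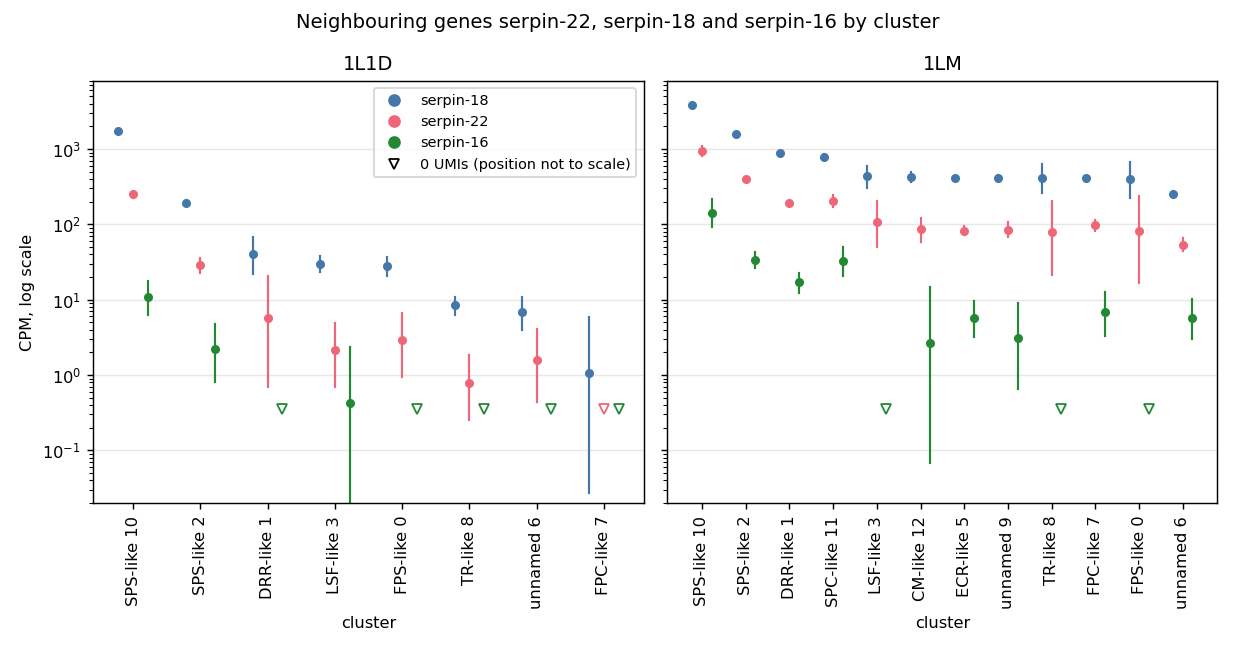
CPM of serpin-18, serpin-22 and serpin-16 in each cluster of at least 20 cells at 1L1D (left) and 1LM (right), on a log axis with 95% Poisson intervals; clusters are ordered by serpin-18, open arrows mark 0 UMIs at an arbitrary height, and 1 lower bound runs off the axis. Both panels start with SPS-like cluster 10, where serpin-18 had 1732 CPM at 1L1D and 3846.5 CPM at 1LM.

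The cell-by-cell overlap of these neighbours was high at 1L1D. Of 47 thinned cells with a serpin-22 UMI, 66.0% also had a serpin-18 UMI, beside 5.60% of all 4339 cells. The 31 cells with both compare with 6.57 if the genes were independent within each cluster. At 1LM, 52.9% of the 663 cells with serpin-22 had serpin-18, beside 41.2% of all 5382 cells. The genes whose log2(CPM + 1) was most like that of serpin-18 over the 28 groups of cluster and library were serpin-22 (Pearson r = 0.98), LOC101740569 (0.96) and LOC101741112 (0.95), which is a description over groups that share 3 libraries.

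Serpin-6, whose Drosophila relative Spn88Ea acts on the Toll pathway, was the serpin with the largest step at the molt. At E8D, 1L1D and 1LM it had 132, 61 and 6273 UMIs, which is 19.2, 3.29 and 478 CPM. The log2 ratio was −2.54 (−3.01 to −2.10) for 1L1D over E8D and 7.18 (6.82 to 7.57) for 1LM over 1L1D, or 5.92 relative to the median of all genes. After thinning to 1000 UMIs, 2.33% of E8D cells, 0.39% of 1L1D cells and 33.5% of 1LM cells had a serpin-6 UMI, and without thinning 46.7% of 1LM cells did. At 1LM its level was 1160 CPM in the unnamed cluster 9, led by cuticle protein genes such as CPR128, against 424 CPM in other cells. Cluster 9 matched the CM markers best, with a median log2 ratio of 4.09, but its leading genes went against that name. A cluster with similar leading genes was named CM-like with 1000 variable genes and 15 components, and DRR-like without the deepest 5% of cells. Serpin-6 had 810 CPM in ECR-like cells, against 396 CPM, and its lowest level was 137 CPM in SPS-like cluster 10. The order of clusters thus differed from that of serpin-18, which was highest where serpin-6 was lowest. Over the 28 groups, the genes most like serpin-6 were LOC732885 (r = 0.93), LOC105842317 (0.93) and CTL5 (0.92).

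Serpin-5, serpin-4 and serpin-32 form another run of neighbours, with 1 or 2 other genes between them in ASM3026992v2. Serpin-4 and serpin-5 are relatives of Drosophila Spn77Ba, an inhibitor of melanization in the airways. Serpin-5 had 59 UMIs (8.58 CPM) at E8D, 1788 (96.4 CPM) at 1L1D and 2338 (178 CPM) at 1LM. Its log2 ratio was 3.49 (3.12 to 3.89) for 1L1D over E8D, and 0.89 (0.80 to 0.98) for 1LM over 1L1D, which turned to −0.38 relative to the median of all genes. Serpin-4 was the most even of the run in CPM, with 50.7, 79.3 and 73.6 CPM at the 3 stages and no call. Its log2 ratio of 1LM over 1L1D was −0.11 in CPM but −1.38 relative to the median of all genes, which is past 2-fold. Its level in the clusters of 1LM lay between 54.1 and 121 CPM. Serpin-32 had 58, 762 and 17 UMIs, so it was higher at 1L1D than at E8D by 2.28 on the log2 scale (1.90 to 2.70), and its log2 ratio of 1LM over 1L1D was −4.99 (−5.77 to −4.30).

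At 1L1D these genes led in the TR-like cluster. Serpin-32 had 104 CPM in TR-like cells, against 7.74 CPM in other cells, and this cluster held 87.7% of its UMIs. Serpin-5 had 207 CPM, against 38.2 CPM, and serpin-4 had 118 CPM, against 59.1 CPM, just under 2-fold. TR-like cells were deep, with a median of 9425 UMIs in 579 cells of 1L1D, beside 1845 UMIs over the library. After thinning to 1000 UMIs, serpin-5 was still found in 17.8% of TR-like cells, beside 5.21% of all cells. At 1LM, serpin-5 was highest in the unnamed cluster 9, with 410 CPM, against 160 CPM in other cells, and in ECR-like cells, with 330 CPM, against 140.5 CPM.

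Serpin-3, serpin-10 and serpin-12 are neighbours with 1 other gene between each. Serpin-3 is a relative of Drosophila Spn27A, which restrains melanization in the hemolymph. Serpin-3 had 67.7 CPM at E8D, 141 CPM at 1L1D and 117 CPM at 1LM, and so varied least in CPM among the abundant serpins beside serpin-2 and serpin-4. Its log2 ratio of 1L1D over E8D was 1.06 (0.91 to 1.203), and it was under 2-fold in all deposited barcodes (0.70), without the deepest 5% of cells (0.97) and as a mean over cells (0.75). Its log2 ratio of 1LM over 1L1D was −0.27 in CPM and −1.54 relative to the median of all genes, and it turned to 0.18 in all deposited barcodes. Serpin-10 had 251 UMIs (36.5 CPM) at E8D, 3514 (189 CPM) at 1L1D and 300 (22.9 CPM) at 1LM. The log2 ratio was 2.38 (2.19 to 2.57) for 1L1D over E8D and −3.05 (−3.23 to −2.88) for 1LM over 1L1D. In TR-like cells, serpin-10 had 318 CPM at E8D, against 14.1 CPM in other cells, and 498 CPM at 1L1D, against 27.4 CPM. These cells held 64.1% and 90.5% of its UMIs. Its step between the stages within the TR-like cluster was thus smaller than over the libraries, with a log2 ratio of 0.64, which was not called. The median of all genes in that cluster was −0.60, so serpin-10 lay more than 2-fold above it. The fat body list stood at 468 CPM in TR-like cells of 1L1D, against 4047 CPM in those of E8D, and its part in these serpin-10 levels was not tested. Different genes gave most of the list in the E8D and 1L1D libraries, as described above. After thinning, 39.4% of TR-like cells of 1L1D had a serpin-10 UMI, beside 8.23% of all cells.

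At 1LM the TR-like cluster held 23 cells and 1 UMI of serpin-10, and the gene was highest in CM-like cells (99.1 CPM, against 20.6 CPM in other cells). Serpin-3 in the same library was highest in the fibroin-led cluster 6, with 191 CPM, against 103 CPM in other cells. Serpin-3 and serpin-10 were found together in 68 thinned cells of 1L1D, beside 68.0 if they were independent within each cluster. Genes most like serpin-3 over the 28 groups reached r = 0.74 at most (LOC101743107, then ae48 at 0.72 and LOC101739335 at 0.70).

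Serpin-2 had 52.0 CPM at E8D, 63.4 CPM at 1L1D and 41.2 CPM at 1LM and was not called between stages, although its log2 ratio of 1LM over 1L1D, −0.62 in CPM, was −1.89 relative to the median of all genes. Its distribution over cells was not even. At E8D it had 285 CPM in TR-like cells, against 33.6 CPM in other cells, and 220 CPM in LSF-like cells, against 38.8 CPM. The same E8D clusters had the highest levels of the fat body list, at 4047 and 3749.9 CPM, beside 42.5 to 348 CPM in the other clusters of E8D, and the part of this list in the serpin-2 level was not tested. Most of the list's UMIs in the E8D library came from LOC101735732, which was also among the 10 leading genes of the LSF-like cluster. At 1L1D, serpin-2 ranged from 21.5 CPM in cluster 6 to 130 CPM in DRR-like cells. These DRR-like cells had the phenoloxidase genes at 225 CPM and the fat body list at 1431 CPM, and the part of either in this level was not tested. In ASM3026992v2 the serpin-2 gene overlaps that of serpin-29, so UMIs of serpin-29 (0, 11 and 13 at the 3 stages) may not be told apart from serpin-2.

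Serpin-28 and serpin-21 were highest at 1L1D, and at that stage in MSG-like cells. Serpin-28 had 3.34 CPM at E8D, 49.8 CPM at 1L1D and 8.46 CPM at 1LM, and its log2 ratio was 3.90 (3.30 to 4.56) for 1L1D over E8D and −2.56 (−2.86 to −2.27) for 1LM over 1L1D. It had 373 CPM in SPS-like cluster 10 at 1L1D, against 21.8 CPM in other cells, and 107 CPM in SPS-like cluster 2, against 40.0 CPM, and 127 CPM in DRR-like cells, against 48.4 CPM, but 0.31 CPM in TR-like cells. Serpin-28 was also among the 10 leading genes of cluster 10, although it had no part in the clustering. Serpin-21 had 4.51, 25.2 and 4.42 CPM at the 3 stages and led in SPS-like cluster 2 at 1L1D with 56.2 CPM, against 19.8 CPM in other cells. At E8D, serpin-21 was instead higher in ASG-like cells, with 19.8 CPM, against 1.87 CPM in other cells. At 1L1D the fat body list had 5107 CPM in SPS-like cluster 10, 1829 CPM in cluster 2 and 1431 CPM in DRR-like cells. Its part in the levels of serpin-28 and serpin-21 was not tested. Serpin-28 and serpin-21 therefore shared the SPS-like cells of 1L1D with serpin-18 but had opposite steps at the molt.

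Serpin-1 is the silkworm antitrypsin, a main inhibitor of trypsin-like proteases of the hemolymph. It had 29 UMIs (4.22 CPM) at E8D, 1213 (65.4 CPM) at 1L1D and 332 (25.3 CPM) at 1LM. The log2 ratio was 3.96 (3.43 to 4.54) for 1L1D over E8D and −1.37 (−1.55 to −1.19) for 1LM over 1L1D. A few cells held most of the transcripts at 1LM, where 8 of 7125 cells had at least 10 serpin-1 UMIs, a limit chosen after the values were seen, and gave 78.3% of the total. All 8 cells also had UMIs of the phenoloxidase genes PPO1, PPO2 or PPO2-2, which are markers of hemocytes. The phenoloxidase genes stood at 2084 CPM in these 8 cells and at 13.1 CPM in all other cells. At 1L1D, 9 cells had at least 10 serpin-1 UMIs and 25.6% of the total, and the phenoloxidase genes stood at 749 CPM in them and at 5.00 CPM in other cells. Of these 9 cells, 5 lay in the DRR-like cluster, where serpin-1 had 705 CPM, against 53.2 CPM in other cells, and the phenoloxidase genes had 225 CPM.

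When all cells with a phenoloxidase UMI were left out (14, 89 and 173 cells at the 3 stages), serpin-1 stood at 4.25 CPM at E8D, 49.6 CPM at 1L1D and 4.24 CPM at 1LM. The log2 ratio of 1LM over 1L1D then was −3.55, and that of 1LM over E8D turned to −0.01 in place of 2.59. Serpin-1 was then no longer called higher at 1LM than at E8D. In TR-like cells of 1L1D, which held 59.4% of the serpin-1 UMIs, serpin-1 had 113 CPM, against 40.5 CPM in other cells. Summed over each library, the 3 phenoloxidase genes had 2.04 CPM at E8D, 10.2 CPM at 1L1D and 17.4 CPM at 1LM, and PPO1 was at 0 in E8D.

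Serpin-13 and serpin-14 were rare and highest at 1LM. Serpin-13 is a relative of Drosophila Spn28Dc, an inhibitor of melanization. At the 3 stages serpin-13 had 15, 23 and 185 UMIs and serpin-13-2 had 4, 7 and 36 UMIs, and the counting may have split reads between these rows. Added, they gave 2.76 CPM at E8D, 1.62 CPM at 1L1D and 16.8 CPM at 1LM. Serpin-14 had 1.599, 3.29 and 18.7 CPM, and its 1LM level was 2.51 above that of 1L1D on the log2 scale (2.10 to 2.94). At 1LM both genes led in ECR-like cells, where serpin-14 had 52.5 CPM, against 10.4 CPM in other cells, and serpin-13 had 30.3 CPM, against 10.1 CPM. At E8D, 11 of the 15 serpin-13 UMIs were in TR-like cells.

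**Figure D4:**
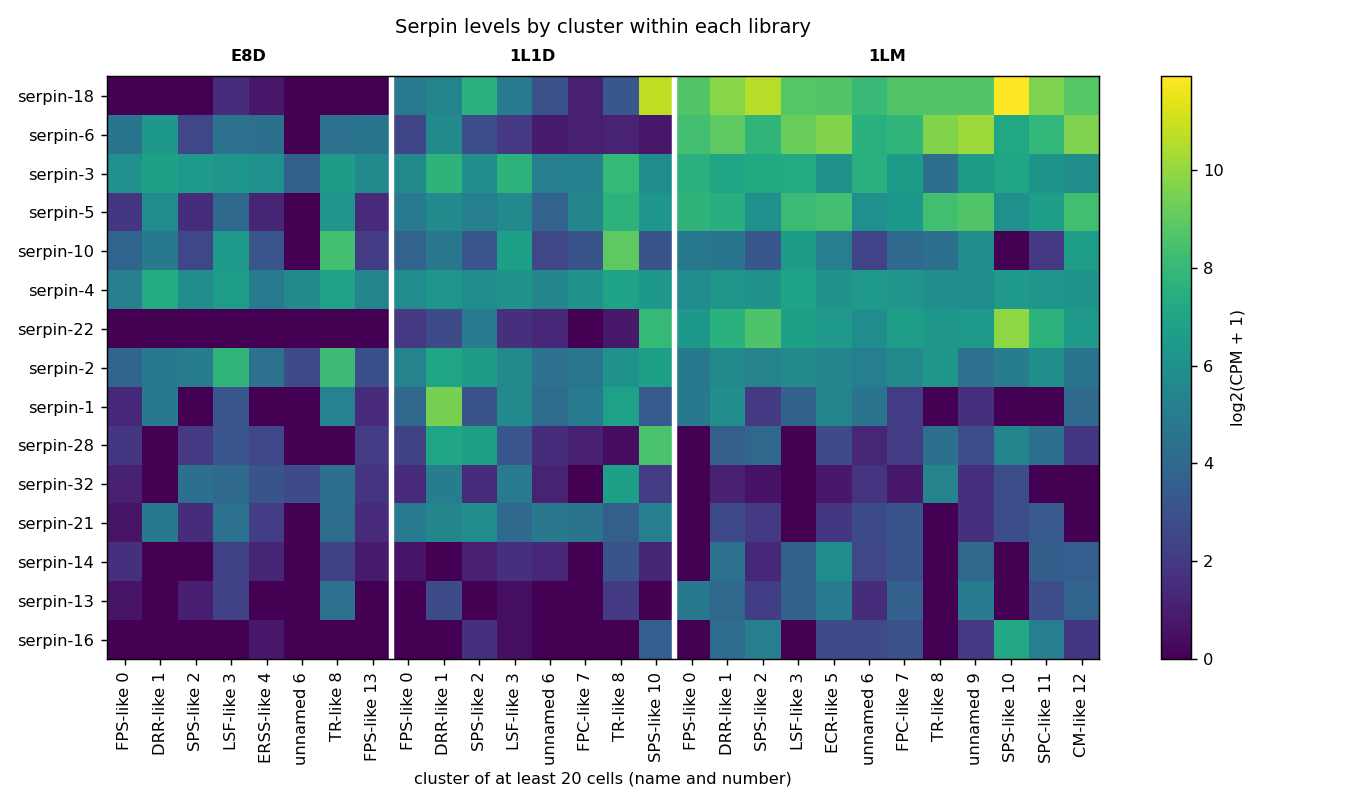
Colour gives log2(CPM + 1) of the 15 serpins (rows) in the 28 groups of cluster and library with at least 20 cells (columns, by library). Serpin-18 and serpin-6 stand high across all 1LM columns, serpin-10 peaks in the TR-like columns of E8D and 1L1D (318 and 498 CPM), and serpin-4 is similar in most columns.

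When cells were joined by gland region, the share of all genes called also differed between regions, so each count of serpins is set beside it. The unnamed clusters 6 and 9 belong to no region and are among the other cells in every comparison. The PSG-like cells were thus compared with a reference that held the fibroin-led cluster 6. Its summed serpin level was low, at 175 CPM at 1L1D and 925 CPM at 1LM, whereas cluster 9 had 2372 CPM at 1LM. The effect of these clusters on the counts was not tested. At E8D, 8 of 12 serpins counted were higher in ASG-like cells than in other cells, beside 21.8% of all genes, 2 of 12 in MSG-like cells, beside 7.94%, and 0 of 12 in PSG-like cells, beside 4.45%. At 1L1D, 8 of 16 were higher in ASG-like cells, beside 18.9% of all genes, 5 of 16 in MSG-like cells, beside 11.4%, and 1 of 16 in PSG-like cells, beside 2.58%. At 1LM, 7 of 19 (36.8%) were higher in ASG-like cells, beside 25.2% of all genes, 4 of 19 in MSG-like cells, beside 3.9%, and 1 of 19 in PSG-like cells, beside 6.8%. The serpin higher in PSG-like cells was serpin-6 at 1L1D and serpin-1 at 1LM. DRR-like cells gave 17 of these 26 serpin-6 UMIs and 157 of these 163 serpin-1 UMIs. They had the phenoloxidase genes at 225 CPM at 1L1D, and at 1LM they included 4 of the 8 cells with at least 10 serpin-1 UMIs. The part of hemocytes in these calls was not tested. Without the deepest 5% of cells, 4 serpins were higher in ASG-like cells at E8D, 7 at 1L1D and 4 at 1LM. Serpins were also called lower. At E8D, 0 of 12 serpins were lower in ASG-like cells, beside 8.17% of all genes, 5 in MSG-like cells, beside 13.4%, and 7 in PSG-like cells, beside 19.1%. At 1L1D, 6 of 16 were lower in ASG-like cells, beside 12.2%, 8 in MSG-like cells, beside 11.1%, and 10 in PSG-like cells, beside 16.4%. At 1LM, 4 of 19 were lower in ASG-like cells, beside 9.61%, 8 in MSG-like cells, beside 14.7%, and 1 in PSG-like cells, beside 6.83%. Different clusters made up the regions at each stage. By number of cells, the ASG-like cells were mostly LSF-like at E8D, LSF-like and TR-like at 1L1D and ECR-like at 1LM. In the same way, the MSG-like cells were mostly ERSS-like at E8D and SPS-like later. The PSG-like cells were mostly FPS-like at E8D and 1L1D and DRR-like at 1LM. In UMIs, however, TR-like cells gave 516 of the 813 ASG-like serpin UMIs at E8D and 8996 of 10452 at 1L1D. LSF-like cells of 1L1D had a summed serpin level of 619 CPM, against 1023 CPM in other cells. In summed level, the serpins had 804 CPM in ASG-like cells of E8D, against 171 CPM in other cells, but 2000.5 CPM in those of 1LM, against 1871 CPM, so the regional difference at the molt was a log2 ratio of 0.10 (0.06 to 0.14). The ASG-like cells of E8D were those of the TR-like and LSF-like clusters, which had the highest fat body list levels of that stage, and the part of this list in the 804 CPM was not tested.

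The stage steps were followed inside SPS-like cluster 2, which had 469, 871 and 750 cells at E8D, 1L1D and 1LM. For 1L1D over E8D, 7 of the 12 serpins counted were higher in this cluster, beside 8.42% of all genes, and 1 was lower, beside 27.2%. For 1LM over 1L1D, 6 of 13 were higher, beside 34.0%, and 3 were lower, beside 6.36%. The fat body list had 348 CPM at E8D, 1829 CPM at 1L1D and 880 CPM at 1LM in the same cluster, and its part in these steps was not tested. Different genes gave most of the list in the E8D and 1L1D libraries, so its sums do not follow a single gene. Serpin-18 had 1586 CPM at 1LM, against 195 CPM at 1L1D, in this cluster, a log2 ratio of 3.03 for 1LM over 1L1D, beside a median of 0.70 over all genes there. Serpin-6 had 222 CPM at 1LM, against 6.201 CPM at 1L1D, a log2 ratio of 5.16. Serpin-28 had a log2 ratio of −2.78 and serpin-21 of −4.18. The fibroin-led cluster 6, with 54, 375 and 777 cells, had a log2 ratio of 1LM over 1L1D of 7.88 for serpin-6 and 5.24 for serpin-18, beside a median of 1.18. These ratios rest on 2 UMIs of serpin-6 and 17 of serpin-18 at 1L1D, so their size is uncertain. There 7 of 13 serpins counted were higher, beside 55.0% of all genes, and 1 was lower, beside 2.37%. The steps of serpin-6 and serpin-18 at the molt were thus present within clusters of the MSG and among fibroin-led cells, with the limit on released RNA given above.

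Cells differed in how many serpins they held. At a depth of 1000 UMIs, 80.9% of E8D cells, 59.3% of 1L1D cells and 21.9% of 1LM cells had no serpin UMI. The shares with UMIs of 2 or more different serpins were 3.28%, 10.7% and 40.3%. Thinning left out 3418 cells of E8D, 0 of 1L1D and 1743 of 1LM, and without it 18.95%, 61.9% and 90.2% of cells had a serpin UMI.

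Of the 31 serpins, 30 were matched by symbol in ASM3026992v2, and 23 of them lay in 8 runs with at most 5 other genes between neighbours. Expression was not shared throughout a run. In the run of serpin-26, serpin-28, serpin-30, serpin-23 and serpin-19, serpin-28 was abundant at 1L1D, serpin-26 had its UMIs mostly at E8D and the other members had no UMI in kept cells. In the pair of serpin-7 and serpin-14, only serpin-14 was found, and in the pair of serpin-8 and serpin-31 neither was. Serpin-15 was found with 40 UMIs at 1LM beside 0 of serpin-20 and 1 of serpin-25, its neighbours.

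As a sum, the other serine protease inhibitors listed here had a different course. A list of 11 genes, taken by description from RefSeq and the annotation of the study and not complete, summed to 1857 CPM at E8D, 9062 CPM at 1L1D and 1355 CPM at 1LM. For 1LM over 1L1D, 2 of its 9 genes counted were higher, beside 60.1% of all genes, and 5 were lower, beside 5.52%. The fungal protease inhibitor F-like gene LOC101738434 had 247 CPM at E8D, 6675 CPM at 1L1D and 445 CPM at 1LM, and LOC101738162, of the same description, had 549, 1532 and 64.2 CPM. LOC101739845, which the study lists under serine protease inhibitor activity, had 722, 611 and 123 CPM. LOC100272001, annotated as serine protease inhibitor 27 and named here after its values were seen, had 0, 0 and 6906 UMIs, so that in kept cells it was found only at 1LM, at 526 CPM. This gene is a serpin by annotation and stands in this list only because its symbol does not begin with serpin.

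A list of 8 genes, taken by description or symbol for the melanization and Toll cascades, was also not complete. It summed to 43.2 CPM at E8D, 40.7 CPM at 1L1D and 145 CPM at 1LM. Spaetzle 3 (LOC101743559) alone gave 267 of its 297 UMIs at E8D and 1420 of 1904 at 1LM. For 1L1D over E8D, 4 of 6 genes counted were higher, beside 15.4% of all genes, and 1 was lower, beside 20.9%. PPO1 and PPO2-2 were among those higher. With PPO2, they are also the hemocyte markers used above, and the part of hemocytes in these counts was not tested. For 1LM over 1L1D, 4 of 7 were higher, which is close to the 60.1% of all genes, and 1 was lower, beside 5.52%. Spaetzle 3, of the family of Toll ligands, had 38.8, 7.44 and 108 CPM and so had the same order of stages as serpin-6. A link between the 2 genes was not tested. The clip-domain protease CLIP11 had 2.04, 21.5 and 7.93 CPM, and PPO2 had 1.89, 3.40 and 10.7 CPM.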

How the data were processed

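The deposited values are raw UMI counts per gene and barcode. According to the labels and methods, the authors aligned and counted reads in Cell Ranger 3.1.0 (STAR aligner, assembly ASM15162v1), with no normalization of these tables. The mention of downsampled reads in the study's methods concerns aggregated data and was not repeated here. The 1L1D table holds exactly 6000 barcodes.

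Barcodes were left out where the ratio of UMIs to genes lay beyond 2 SD of the library's mean or where over 30% of UMIs came from the 13 mitochondrial genes. This left 16344 of 18864 barcodes and 6878383, 18546139 and 13120838 UMIs at E8D, 1L1D and 1LM. No doublet caller was run, so doublets are limited only by the first filter.

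Cells were scaled to 10000 UMIs. On 2000 variable genes without protease inhibitors, 30 principal components were joined by mutual nearest neighbours and clustered with Leiden at resolution 0.8. A cluster was named where at least 3 markers of a cell type were found, their median ratio to other cells was at least 2-fold, and its leading genes did not go against the name. Sums of UMIs have exact Poisson intervals and ratios exact binomial (Clopper-Pearson) intervals, at 95%. With 1 library per stage no test was run and no p-value is given. In ratios, 3 UMIs stand in for 0. Serpins with at least 100 UMIs in a library are described singly. From each list of related genes, the 3 with the most UMIs and any with at least 1000 CPM in a library are named. The serpins, lists and rules were chosen with earlier results of these data known. The call rule was tested on simulated counts. Alternatives were other cell filters, scalings (edgeR 4.0.16 TMM, DESeq2 size factors, centring), means over cells, count minimums and cluster settings. Leaving out cells with a phenoloxidase UMI was added after seeing the data. Symbols and neighbours came from RefSeq on ASM3026992v2. Protein and promoter sequences were not used here.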

Additional observations from a re-analysis of the deposited data

Results flagged for a closer look

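The change of serpin-32 between 1L1D and E8D went in opposite directions in 2 clusters. Its log2 ratio of 1L1D over E8D was 2.40 in TR-like cells (668 UMIs at 1L1D, 10 at E8D) and −3.41 in SPS-like cluster 2 (5 and 20 UMIs). Serpin-2 had a log2 ratio of 1L1D over E8D of 1.58 in SPS-like cluster 2 and of −2.16 in LSF-like cells. For 1LM over E8D it was 2.56 in the fibroin-led cluster 6, from 70 UMIs at 1LM and 1 at E8D, and −2.19 in LSF-like cells, from 4 and 111 UMIs. Serpin-3 had a log2 ratio of 1LM over 1L1D of 2.46 in cluster 6 and of −3.66 in TR-like cells, where 23 cells of 1LM gave 1 UMI and 579 cells of 1L1D gave 1605. With 1 library per stage, the differences between clusters were not tested.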

How the results depend on the processing

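No paired analysis was possible because each stage has 1 library. Over all 489 values of single serpins under an alternative, called or not in the main setting, 454 had the same call as in the main setting. Of 357 values of single serpins that were called, 342 kept their call under the alternatives run, and 15 were not called. Those 15 belong to serpin-3, serpin-14 and serpin-16 for 1L1D over E8D, serpin-18 for 1LM over 1L1D, and serpin-1 and serpin-28 for 1LM over E8D. The cause was not tested. The log2 ratio of serpin-1 for 1LM over E8D fell to −0.0061 without cells that held a phenoloxidase UMI. It then rested on 54 UMIs at 1LM and 29 at E8D, so the difference was lost and not reversed. This setting was chosen after seeing the data. The summed log2 ratio of 1L1D over E8D was 1.97 without silk protein and mitochondrial genes in the total, 2.17 with TMM, 2.13 with size factors, 2.05 centred on the median and 1.62 as a mean over cells. The summed ratio of 1LM over 1L1D was 1.17 in all barcodes, 0.89 at a mitochondrial limit of 20%, 1.196 without the deepest 5% of cells, 0.85 without silk protein and mitochondrial genes, 1.56 as a mean over cells, and reversed to −0.14 with TMM, −0.19 with size factors and −0.30 centred. The summed ratio of 1LM over E8D was 3.09 in all barcodes, 3.104 without the deepest cells, 2.02 with TMM, 1.94 with size factors, 1.78 centred and 3.18 as a mean over cells. The counts of serpins that follow are given without the shares of all genes called under the same settings, so they have no background beside them. With at least 10 UMIs in both groups, 1 serpin was lower for 1L1D over E8D, and 6 were higher and 1 lower for 1LM over E8D. For 1LM over 1L1D, 8 were lower with TMM, 8 with size factors and 8 centred, and for 1LM over E8D 4 with TMM, 4 with size factors and 5 centred. The number higher in ASG-like cells was 4 at E8D and 4 at 1LM without the deepest cells, and 4 at 1LM as a mean over cells. In MSG-like cells it was 1 at E8D with resolution 0.4, with resolution 1.6 and with 1000 variable genes and 15 components, and 2 at 1LM with no batch correction. In PSG-like cells it was 1 at E8D in all barcodes. At 1L1D it was 4 in all barcodes, 2 with resolution 1.6, 2 without the deepest cells, 0 with 1000 variable genes and 0 as a mean over cells, and no value could be had with no batch correction, since the class had too few cells. At 1LM it was 0 with resolution 1.6, 0 without the deepest cells and 0 as a mean over cells. Depth limits the rare serpins most, since a count of 0 allows 0.436 CPM at E8D.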
